A study of Mus musculus with 4 samples.

Results

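Zinc finger transcription factor genes were examined as sites of Nrf2 binding in mouse esophagus. Nrf2 chromatin immunoprecipitation followed by sequencing (ChIP-seq) had been run on 3 genotypes of C57BL/6 mice, with 1 library each. The wild-type library gives binding under normal control, the Nrf2KO library gives the signal of the same antibody (Santa Cruz sc-13032) without its target, and the Keap1KO library gives binding without the protein that marks Nrf2 for destruction. The fourth sample, pooled input DNA, was not analysed here. How the alleles were made, the age of the mice and how many mice went into a library were not stated in these sources. The members were chosen by name alone, as genes of the table whose symbol begins with Zfp, Zbtb, Zscan, Zkscan, Zfhx, Zeb or Znf. They numbered 34 of 1940 genes, of which 22 were Zfp, 7 Zbtb, 2 Zscan, 2 Zkscan and 1 Zeb genes, with 0 Zfhx and 0 Znf. All 34 are described as zinc finger genes in the deposited annotation. The proteins themselves were not analysed here, and a prefix does not show that a protein is a transcription factor.

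Nrf2 is a transcription factor activated by oxidative stress that pairs with small Maf proteins and binds the antioxidant response element, whose core reads TGACNNNGC. Genes of C2H2 zinc finger proteins form one of the largest families of transcription factors in mammals. Many Zfp proteins carry a KRAB domain, which recruits the corepressor Trim28 and silences transposable elements. Zbtb proteins carry a BTB domain, through which they pair and recruit corepressors, and Zscan and Zkscan proteins carry a SCAN domain for pairing.

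The table gives intervals called in or near genes and an average peak height per gene in each library, a deposited signal whose unit is not stated. Genes that share an interval are not separate measurements, so heights are given per locus, a set of merged intervals listed under the same genes. The 34 genes lay at 32 of the 1460 loci. There were 3 loci shared by 2 members each, namely Zkscan1 with Zscan21, Zkscan5 with Zfp655, and Zfp566 with Zfp260. Conversely, Zbtb7b had 2 loci. At 11 of the 32 loci a gene outside the family was listed too, and at 7 of them the start of such a gene was the nearest one.

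All 32 loci were called in Keap1KO, as were 99.2% of the table's loci, so heights there were selected upwards. In wild-type 1 of 32 was called (3.77% of all loci) and in Nrf2KO 0 (0% of all loci). With 1 library per genotype and unknown depth there was no replicate error and no test, and a difference in library size cannot be told apart from a difference in binding. Every comparison below is therefore of single libraries. Heights are binding signal, so they check neither the labelled tissue nor the deletions.

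The sequences of 4 members are shown, because these are the members with a called interval position inside the RefSeq promoter window, which runs from 250 bases before to 50 after a gene start (build GRCm38.p6). They are printed in the direction of the gene, 5′ to 3′, and capitals mark a match to TGACNNNGC on either strand. For Zfp143 the first of its 2 windows is given.
Zscan12: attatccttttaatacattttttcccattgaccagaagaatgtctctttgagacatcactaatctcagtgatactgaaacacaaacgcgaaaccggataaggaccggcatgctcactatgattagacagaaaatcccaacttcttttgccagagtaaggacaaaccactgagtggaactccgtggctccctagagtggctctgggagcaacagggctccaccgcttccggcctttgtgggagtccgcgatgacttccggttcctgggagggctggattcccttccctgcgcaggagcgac
Zfp963: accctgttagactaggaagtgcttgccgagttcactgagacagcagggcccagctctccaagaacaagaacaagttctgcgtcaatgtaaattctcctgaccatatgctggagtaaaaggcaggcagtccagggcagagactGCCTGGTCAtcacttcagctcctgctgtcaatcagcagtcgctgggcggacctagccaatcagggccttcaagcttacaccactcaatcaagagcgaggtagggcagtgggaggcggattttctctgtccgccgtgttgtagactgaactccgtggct
Zfp143: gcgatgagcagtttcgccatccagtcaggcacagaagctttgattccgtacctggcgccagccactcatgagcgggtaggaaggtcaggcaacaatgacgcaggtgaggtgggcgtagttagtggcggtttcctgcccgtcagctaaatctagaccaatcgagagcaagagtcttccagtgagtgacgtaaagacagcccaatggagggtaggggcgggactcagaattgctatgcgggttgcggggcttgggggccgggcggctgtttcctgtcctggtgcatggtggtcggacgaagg
Zfp655: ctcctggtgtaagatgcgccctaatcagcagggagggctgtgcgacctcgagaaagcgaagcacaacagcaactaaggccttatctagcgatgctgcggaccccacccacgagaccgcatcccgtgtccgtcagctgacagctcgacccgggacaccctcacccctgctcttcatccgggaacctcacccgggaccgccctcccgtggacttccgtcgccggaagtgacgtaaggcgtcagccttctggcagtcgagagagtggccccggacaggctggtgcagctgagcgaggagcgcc
The windows lie at chr13:21362570-21362869 (plus strand), chr8:69749913-69750212 (minus strand), chr7:110061452-110061751 (plus strand) and chr5:145231492-145231791 (plus strand). The capitals in Zfp963 are a site on the strand opposite to the gene, where it reads TGACCAGGC. It lies at chr8:69750062-69750070, at bases -108 to -100 from the start, and its centre is 50 bp from the interval position. The other windows printed hold no match to these letters.

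Of the 34 members, 20 had a promoter window in the RefSeq table, and 1 of these 20 held the core motif in at least 1 window (5%, exact 95% binomial interval 0.127 to 24.9). Among all genes of the deposited table with a window the share was 271 of 1434 (18.9%), and among all 27025 genes with a window it was 14%. Where the interval itself lay inside the window, the motif was in that of 1 of 4 members and 53 of 142 genes of the table (37.3%). With 1 more base at its 3′ end, an A, which the Zfp963 site also has, the shares were 5% of members against 5.30% of the table's genes, and 1 of 4 against 16.2% where the interval lay inside the window. The members' share was 1 of 20 with either motif, and its interval covers the share of the table's genes in both cases. Intervals elsewhere were not searched.

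The table's coordinates are in mm10. Interval positions are computed from each gene's start and the listed distance, and 73.4% of them fall on a 32 bp grid, so distances of a few bases carry no meaning.

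In Keap1KO the member loci ran from a height of 11 to 43, with a median of 17.25 (95% order-statistic interval 14 to 26), against 18 over all loci. Wild-type ran from 1 to 17 with a median of 5, equal to that of all loci. Nrf2KO ran from 0 to 13 with a median of 6 (3 to 8), against 4.33 over all loci. The ranges of the libraries overlapped over the family, while at each locus Keap1KO was the highest of the 3. The quartiles of Keap1KO height over all loci were 14, 18 and 23.4, and the 90th percentile was 34. These heights were reached by 27, 15, 11 and 6 of the 32 member loci. Of the 1460 loci in all, 1183, 749, 365 and 148 reached them.

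**Figure D1:**
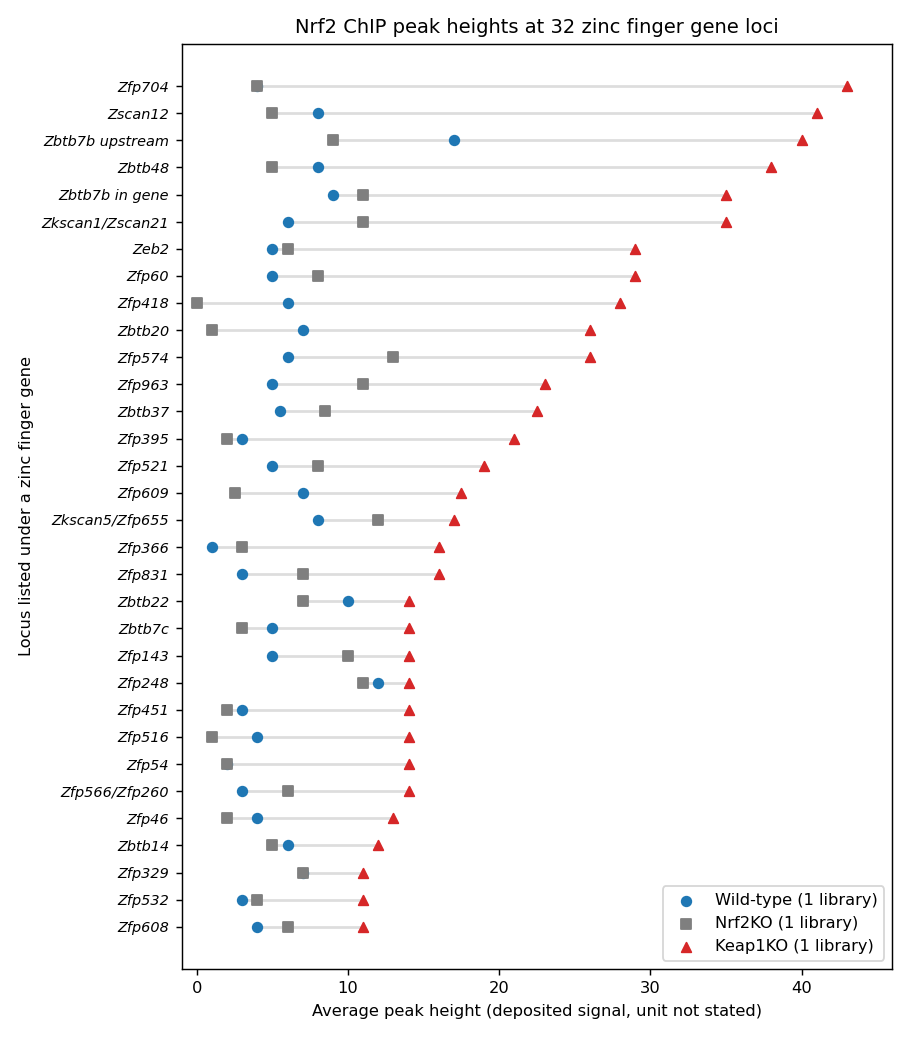
Average peak height (x axis, deposited signal) of each of the 32 zinc finger gene loci (y axis, ordered by Keap1KO height) in the wild-type, Nrf2KO and Keap1KO libraries, 1 point per library. Keap1KO points lie to the right at every locus as deposited, from 11 to 43, but at 20 and 15 of 32 over wild-type and Nrf2KO with libraries scaled to equal medians, and the other genotypes change order from locus to locus.

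Among the BTB genes, Zbtb7b (GeneID 22724, chromosome 3, 89377646 to 89393203, minus strand) was the only member called in wild-type. Its product, also known as ThPOK, directs T cells to the CD4 lineage. A wild-type interval 1725 bp and a Keap1KO interval 1773 bp upstream of its start form 1 locus, also listed under Gm15417. The heights there were 17 in the wild-type, 9 in the Nrf2KO and 40 in the Keap1KO library. Ratios are of heights plus 1, so that low heights give understated folds. Keap1KO was 2.28-fold above wild-type, and wild-type was 1.80-fold above Nrf2KO. The other Zbtb7b locus lay 14371 bp into the gene, near its end, is also listed under Dcst2, and had 9 in the wild-type, 11 in the Nrf2KO and 35 in the Keap1KO library. Wild-type was thus above Nrf2KO upstream of the gene and below it inside.

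Zbtb48, which encodes a protein that binds telomeric repeats, was listed for an interval 9344 bp beyond its end, with 8 in the wild-type, 5 in the Nrf2KO and 38 in the Keap1KO library. That interval lay 1541 bp into Klhl21, whose start was nearer. Zbtb20, a transcriptional repressor of brain and liver, had an interval 115788 bp into its gene of chromosome 16 (position 43363072), 594 bp from the start of Gm9968. The heights were 7 in the wild-type, 1 in the Nrf2KO and 26 in the Keap1KO library, with wild-type 4.00-fold and Keap1KO 13.5-fold above Nrf2KO. Nrf2KO was at a height of 1 there, so these folds depend strongly on the pseudocount.

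Zbtb37 had 2 regions upstream of its deposited start, 1101 and 2221 bp away (at -511 and -1631 bp from the RefSeq start), in the small nucleolar RNA host gene Gas5. Their mean heights were 5.5 in the wild-type, 8.5 in the Nrf2KO and 22.5 in the Keap1KO library. The listed maximum puts one region at 32 in Keap1KO, which leaves 13 for the other. Zbtb7c had 5, 3 and 14 in wild-type, Nrf2KO and Keap1KO at an interval 243278 bp into the gene, the longest distance of the family. The lowest Keap1KO height of a BTB gene was at Zbtb14, 246 bp into the gene, with 6, 5 and 12. At the Zbtb22 locus, 58 bp into BC051226 and 325 bp upstream of Daxx, the heights were 10, 7 and 14. On heights plus 1, Keap1KO was under 2-fold above wild-type at Zbtb14 and Zbtb22 and at least 2-fold above it at the other 6 BTB loci. The Zbtb14 heights themselves, 6 and 12, are exactly at the limit.

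Of the SCAN genes, Zscan12 (GeneID 22758, chromosome 13, 21362820 to 21372302, plus strand) had the tallest locus at a gene start. The interval lay 164 bp upstream, at heights of 8 (wild-type), 5 (Nrf2KO) and 41 (Keap1KO). Keap1KO was 4.67-fold above wild-type and 7-fold above Nrf2KO there, and its window, printed above, holds no match to the motif. The locus 71 bp into Zscan21, which is also 9154 bp beyond the end of Zkscan1, had 6 in the wild-type, 11 in the Nrf2KO and 35 in the Keap1KO library. The locus 147 bp upstream of Zfp655, 9818 bp beyond the end of Zkscan5, had 8, 12 and 17. At both of these shared loci wild-type lay below Nrf2KO, and the second had Keap1KO only 1.38-fold above Nrf2KO.

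Zeb2, an E-box binding repressor known for its part in epithelial to mesenchymal transition, had an interval 63775 bp into its gene on chromosome 2 (position 45049504). Its heights were 5 in the wild-type, 6 in the Nrf2KO and 29 in the Keap1KO library. Keap1KO stood 5-fold above wild-type and 4.29-fold above Nrf2KO.

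Among the Zfp genes, the tallest locus of the family was at Zfp704 (GeneID 170753, chromosome 3, 9427010 to 9610085, minus strand), 94373 bp into the gene at position 9515712. It had 4 in the wild-type, 4 in the Nrf2KO and 43 in the Keap1KO library, which was 8.80-fold above either. In the ranking of all 1460 loci by Keap1KO height it stood at place 68. Far from starts, Zfp395 (10876 bp into the gene) had 3, 2 and 21 in wild-type, Nrf2KO and Keap1KO. Zfp366, whose product is also known as DC-SCRIPT from dendritic cells, had 1, 3 and 16 at 38969 bp into the gene. Keap1KO was 8.50-fold above wild-type and 4.25-fold above Nrf2KO there, with wild-type at a height of 1.

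Zfp521, a factor of blood and neural progenitors, had 5 in the wild-type, 8 in the Nrf2KO and 19 in the Keap1KO library at 92493 bp into the gene. Zfp831 had 3, 7 and 16 at 30386 bp, and Zfp532 had 3, 4 and 11 at 48143 bp. These 3 loci, each more than 30 kb from a listed start, had wild-type below Nrf2KO. So did 6 of the 17 member loci farther than 1 kb from a start (35.3%), against 30.4% of all loci so placed. Zfp609 had 2 regions, 47676 and 125092 bp into the gene, with means of 7 in the wild-type, 2.5 in the Nrf2KO and 17.5 in the Keap1KO library and regions of 20 and 15 in Keap1KO. Zfp516, which takes part in brown fat formation, had 4, 1 and 14 at 7839 bp upstream. At Zfp609 and Zfp516 wild-type was 2.29-fold and 2.50-fold above Nrf2KO. These folds rest on low Nrf2KO heights, and with a pseudocount of 5 they fell under 2-fold (log2 0.68 and 0.58).

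At the 8 loci within 1 kb of a Zfp gene's own start, Nrf2KO lay above wild-type at 7 (87.5%). Among all loci within 1 kb of any listed start, which is a wider rule, it did so at 47.6%. The difference was not tested. The eighth of these Zfp loci was at Zfp418, a KRAB zinc finger gene, 647 bp into the gene (chromosome 7, position 7172000). It had 6 in wild-type, a height listed at 0 in Nrf2KO and 28 in Keap1KO. Zfp574, 53 bp upstream of its start, had 6 in the wild-type, 13 in the Nrf2KO and 26 in the Keap1KO library. Its Nrf2KO height was the greatest of the family. Zfp963, with the core motif in its window, had 5, 11 and 23. Zfp60, 143 bp into the gene, had 5, 8 and 29. At Zfp574 and Zfp963 wild-type was at 0.50 of Nrf2KO on the same scale, and Keap1KO was 1.93-fold and 2.00-fold above Nrf2KO.

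Zfp143, an activator bound at many promoters, had 5 in the wild-type, 10 in the Nrf2KO and 14 in the Keap1KO library at 38 bp upstream, a locus also listed under Ipo7 and AA474408. Zfp566, 658 bp upstream and shared with Zfp260, had 3, 6 and 14, and Zfp608, 860 bp upstream, had 4, 6 and 11. Zfp248 was listed for an interval 7751 bp beyond its end that lay 151 bp upstream of Bms1, with 12, 11 and 14. It had the lowest Keap1KO over wild-type ratio of the family (1.15-fold) and the lowest over Nrf2KO (1.25-fold). Zfp329 had 7, 7 and 11 at 354 bp beyond its end. Zfp451 had 3, 2 and 14 at 5017 bp beyond its end and 1014 bp into Bag2, Zfp54 had 2, 2 and 14 at 3480 bp beyond its end, and Zfp46 had 4, 2 and 13 at 7072 bp upstream.

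The comparison of Keap1KO with wild-type asks how binding differs when Nrf2 is no longer marked for destruction. As deposited, Keap1KO was above wild-type at 32 of 32 member loci (98.8% of all loci), but at 20 of 32 (53.4% of all loci) with each library scaled to the same median over all loci. That scaling moves the median log2 ratio of all loci from 1.74 to 0.07 here, from 0.19 to 0.01 for wild-type over Nrf2KO and from 1.91 to 0.08 for Keap1KO over Nrf2KO. As deposited, Keap1KO exceeded wild-type at least 2-fold at 28 of the 32 (87.5%), against 88% of all loci, and at least 2-fold below at 0 (0.274% of all), a split of 2 above and 3 below after scaling (11.2% and 5.48% of all). On heights plus 1, the exceptions to the 2-fold rule were Zfp248, Zbtb22, Zfp329 and Zbtb14. The median log2 ratio was 1.85 (1.32 to 2.09) for members, which is 0.11 above that of all loci as deposited and 0.067 above it after scaling. The members' shares were close to those of the table.

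The comparison of wild-type with Nrf2KO asks how much of the wild-type signal depends on Nrf2. Wild-type was above Nrf2KO at 14 member loci, equal at 3 and below at 15, whereas over all loci it was above at 53.8% and below at 35.8%. The median log2 ratio was 0.00 (-0.55 to 0.46), against 0.19 (0.14 to 0.26) over all loci. It was at least 2-fold higher at 4 loci (12.5%, against 18.8% of all), which were Zfp418, Zbtb20, Zfp516 and Zfp609. At least 2-fold lower were 4 (12.5%, against 8.29% of all), which were Zfp574, Zfp963, Zfp366 and Zfp831, each exactly at the limit. After scaling, wild-type was above at 13 of 32 (50.7% of all loci), at least 2-fold higher at 4 (15.2% of all) and lower at 7 (12.1%). The 21 Zfp loci had a median of -0.32 (-0.81 to 0.42) and the 8 Zbtb loci a median of 0.52 (-0.55 to 2.00). These intervals overlap, and the difference was not tested.

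The comparison of Keap1KO with Nrf2KO sets the signal against the antibody background. Keap1KO was above Nrf2KO at 32 of 32 member loci as deposited (99% of all loci), but at 15 of 32 (53.7% of all loci) with libraries scaled to equal medians, where their median log2 ratio was -0.28. As deposited it was at least 2-fold above at 25 of 32 (78.1%, 60.0 to 90.7), against 85.3% of all loci, and at least 2-fold below at 0 (0.137% of all), with 5 above and 6 below after scaling (19.6% and 12.1% of all). On heights plus 1, the 7 loci under 2-fold were those of Zfp248, Zfp143, Zfp655 with Zkscan5, Zfp329, Zfp608, Zbtb22 and Zfp574. The Nrf2KO and Keap1KO heights themselves are exactly at the limit at Zbtb22 (7 and 14) and Zfp574 (13 and 26). The median log2 ratio was 1.66 (1.10 to 2.32), against 1.91 over all loci. The members' median lay 0.25 below that of all loci as deposited and 0.35 below it after scaling. Both comparisons with Nrf2KO use the same library, and the Keap1KO library likewise serves 2 comparisons.

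**Figure D2:**
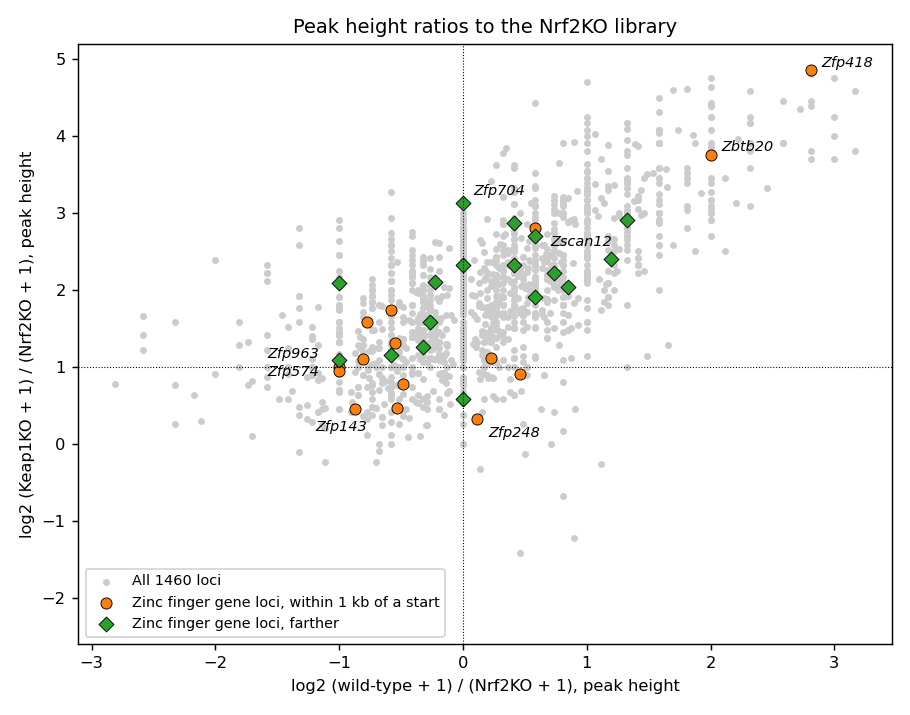
Log2 ratio of Keap1KO to Nrf2KO height (y axis) against that of wild-type to Nrf2KO height (x axis), both of heights plus 1 as deposited, for all 1460 loci (grey) and the 32 zinc finger gene loci (orange within 1 kb of a listed start, green farther away), 1 point per locus. The dotted lines mark a ratio of 2-fold on the y axis and equal heights on the x axis, both axes share the Nrf2KO height, Zfp418 is listed at 0 in Nrf2KO, and 25 zinc finger gene loci lie at or above the 2-fold line.

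Over all loci, position relative to gene starts went with the Nrf2KO and wild-type heights. Of the 32 member loci, 15 lay within 1 kb of the nearest listed start (46.9%, 29.1 to 65.3), against 31.1% (28.7 to 33.5) of all loci, and 11 of the 32 lay within 1 kb of a member's own start. The median Nrf2KO height of members was 8 (5 to 11) at loci within 1 kb of a start and 4 (2 to 7) at the others. These intervals overlap, and over all loci the medians were 7 and 4. In wild-type the members' medians were 6 and 4, against 6.58 and 4.5 over all loci. In Keap1KO they were 22.5 (14 to 28) and 16 (14 to 29), against 17 and 18 over all loci. The members' Keap1KO intervals overlap almost wholly, so no order by position is read from these medians.

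Within 1 kb of a start, 9 of 15 member loci had Keap1KO 2-fold or more above Nrf2KO (60%), against 66.1% of all loci so placed. Farther away it was so at 16 of 17 (94.1%), against 93.9%. The exception far from a listed start was Zfp329. At the 15 loci within 1 kb of a start, wild-type was below Nrf2KO at 9 (60%) and above it at 6 (40%), while over all loci within 1 kb of a start it was below at 47.6% and above at 42.7%. Of the 11 within 1 kb of a member's own start, it was below at 8 and above at 3, the latter being Zscan12, Zfp418 and Zbtb14. The members' median log2 ratios to Nrf2KO lay below those of all loci, while that of Keap1KO to wild-type lay above (1.85 against 1.74). Their intervals covered the medians of all loci, for Keap1KO over Nrf2KO (1.10 to 2.32, against 1.91) and for wild-type over Nrf2KO (-0.55 to 0.46, against 0.19). Whether position accounts for the lower medians was not tested.

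**Figure D3:**
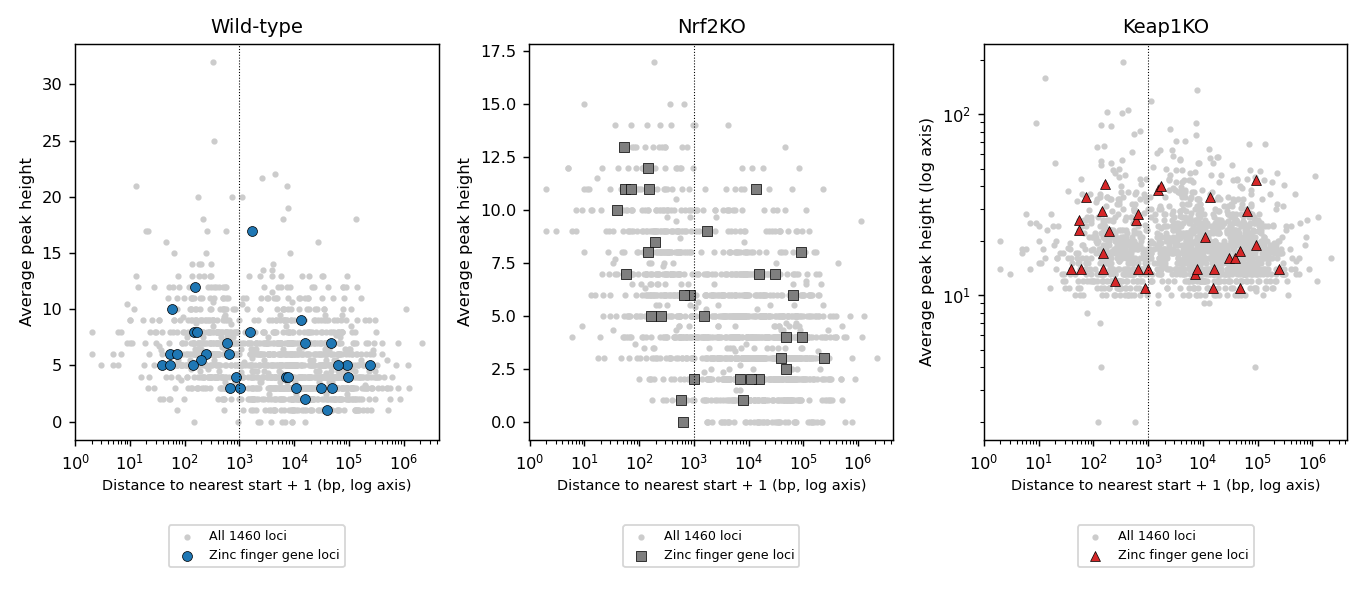
Average peak height (y axis, logarithmic for Keap1KO) against the distance to the nearest listed gene start plus 1 bp (x axis, logarithmic) in each library, for all 1460 loci (grey) and the 32 zinc finger gene loci (coloured), 1 point per locus and a dotted line at 1 kb. In Nrf2KO the zinc finger gene loci have a median of 8 (5 to 11) to the left of the line and 4 (2 to 7) to the right.

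Other zinc finger genes, outside the prefixes, were taken from a list of 100 transcription factor and corepressor genes that included the Klf, Sp, Egr, Gli, Ikzf and Prdm families. Of these, 9 had a locus (9%, 4.20 to 16.4), against 7.17% (5.02 to 9.88) of the 474 RefSeq protein-coding genes with a prefix and 7.67% of all 21883 protein-coding genes. By prefix, 7 of 41 Zbtb genes were listed (17.1%, 7.15 to 32.1) and 22 of 400 Zfp genes (5.5%, 3.48 to 8.21). The 5 tallest of the other list in Keap1KO were Adnp, Glis3, Prdm16, Hivep3 and Yy1, of which the last shared its height of 13 with Klf2 and Gli3. Adnp, a chromatin regulator, had 12 in the wild-type, 13 in the Nrf2KO and 19 in the Keap1KO library at 298 bp upstream of its start. Glis3 had means of 3.5, 2.5 and 16.5 over 2 regions, Hivep3 had 2, 5 and 14, and Yy1 had 4, 1 and 13. Prdm16 had 5, 1 and 15 at a locus also listed under B230104I21Rik, whose start was the nearest, 943 bp away. The list's median Keap1KO height was 13 (12 to 16.5), against 17.25 (14 to 26) for members, and these intervals overlap. Its highest value was 19 among 9 loci and the members' was 43 among 32, so the maxima come from sets of unlike size. At 7 of the list's 9 loci Keap1KO stood 2-fold or more above Nrf2KO (85.3% of all loci), and at 8 above wild-type (88% of all loci).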

How the data were processed

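Nrf2 ChIP-seq was measured in wild-type, Nrf2KO and Keap1KO mouse esophagus, 1 library each. The submitters' processing notes name BWA, MACS2 2.1.0 and mm10. Parameters, depth and scaling were not stated in these sources. Per the file headers, the deposited signal is an average peak height per gene, the highest peak signal, a flag for a called interval and numbers of intervals and active regions. In the deposited table the lower gene coordinate equalled the 1-based RefSeq one for 51.7% of matched genes and 17 of 34 members, so positions were taken to count from 1. Other starts differ from RefSeq, and distances in the text are to the deposited starts.

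The 1727 intervals were merged to the stated number of active regions (1684, largest merged distance 704 bp), and heights per locus were solved by least squares (largest residual 0.00186) with Python 3.11.15 and numpy 2.4.6, tested on simulated data. Log2 ratios use a pseudocount of 1. Intervals of medians are order-statistic and of shares Clopper-Pearson 95% intervals, which cover the spread over loci or counting error only. Depth is unknown, so no height has an interval.

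All 34 members matched the RefSeq table of GRCm38.p6 by identifier, 25 with both ends within 1 kb. Promoter windows are those of RefSeq. Zinc finger counts per protein were planned and not run, since protein sequences were not used here. Every member could be named. Full values were planned for the 10 tallest loci, those called in wild-type, the 5 largest and smallest ratios to Nrf2KO, members with 2 regions and intervals at starts, and of the other list the 5 tallest. The members and lists were chosen with earlier results of these data known. Alternatives covered pseudocounts, low heights, values per gene, position, scaling and calls.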

Additional observations from a re-analysis of the deposited data

How the results depend on the processing

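No paired analysis was possible because there was 1 library a genotype. Loci not called in wild-type and loci farther than 1 kb from a start were chosen after seeing the data. Among alternative values of the main results, 80 stayed within the interval of a median or share or within 1.5 times a count, 12 moved and 1 changed sign. Of the other values, mostly ratios of single loci with a margin of 0.5 log2, 198 stayed, 99 moved and 18 changed sign. For single loci a sign change was counted only where heights were at least 2-fold apart as deposited. Sign changes at loci less far apart are among those that moved or stayed, so 18 is not their full number. Unless stated, the cause was not tested. Depth is unknown, which limits every ratio.

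Scaling each library to its median over all loci takes out the difference between libraries by construction. Members then had a median log2 ratio of 0.14 for Keap1KO over wild-type, with 6.25% at least 2-fold higher, and of -0.28 for Keap1KO over Nrf2KO, with 15.6% higher and 18.8% lower. Among loci at least 2-fold apart as deposited, the Keap1KO over wild-type ratio changed sign at Zbtb7b upstream (-0.59), Zfp609 (-0.48), Zkscan5 with Zfp655 (-0.70), Zbtb7c (-0.32), Zfp516 (-0.036), Zfp143 (-0.32), Zfp46 (-0.13) and Zfp608 (-0.34). The Keap1KO over Nrf2KO ratio changed sign at Zbtb7b in the gene (-0.37), Zkscan1 with Zscan21 (-0.37), Zfp60 (-0.18), Zfp963 (-0.93), Zbtb37 (-0.61), Zfp521 (-0.75), Zfp831 (-0.79), Zfp566 with Zfp260 (-0.75), Zbtb14 (-0.70) and Zfp532 (-0.52).

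A pseudocount of 5, which shrinks ratios by construction, gave members a median log2 ratio of 1.32 for Keap1KO over wild-type. Keap1KO was then at least 2-fold above Nrf2KO at 59.4% (78.1% with a pseudocount of 1). Wild-type was at least 2-fold above Nrf2KO at 6.25% and below it at 0% (12.5% each with a pseudocount of 1). Shares over all loci with a pseudocount of 5 are not given here, so these falls are not read as a trait of the members. With a pseudocount of 1, members farther than 1 kb from a start had Keap1KO at least 2-fold above Nrf2KO at 94.1%, against 93.9% of all loci so placed. Calls limited to heights of at least 18 left 15 in Keap1KO (51.3% of all loci) and 0 in wild-type (0.685%), and heights of at least 12 gave 2 in wild-type (5.14%) and 2 in Nrf2KO (3.36%).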

Other observations

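The members were unevenly spread over the chromosomes. Chromosome 7 held 7 of the 34 genes (20.6%), close to its 21.9% of all RefSeq protein-coding genes with these prefixes and above its 7.84% of all genes of the table. Chromosome 18 held 5 (14.7%), namely Zfp521, Zfp608, Zfp532, Zbtb7c and Zfp516, although it has 2.95% of the genes with these prefixes (14 of 474) and 3.20% of the genes of the table. These 5 genes share no interval, and their Keap1KO heights ran from 11 to 19, while those of the chromosome 7 genes ran from 11 to 29. The uneven spread was noticed in the data and was not tested.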
